A study of Mus musculus with 14 samples.

Results

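The genes described here are the receptors and intracellular mediators of bone morphogenetic proteins (BMPs) and transforming growth factor beta (TGF-beta) in granulosa cells (GCs) of mice with genetic obesity. They were chosen by symbol, as 5 receptors (Bmpr2, Bmpr1a, Bmpr1b, Tgfbr1 and Tgfbr2) and 5 SMADs (Smad2, Smad3, Smad4, Smad5 and Smad7), and all 10 were found among the 55414 genes of the count table. All 10 also passed the filter on low counts in every comparison. These 10 genes and the pathway lists below were chosen with earlier results of these data known. Shares of them set beside those of all genes therefore only describe these lists. The series held 14 RNA-seq libraries in 4 groups. There were 4 libraries of db/db mice (strain B6.BKS(D)-Leprdb/J), which lack the long isoform of the leptin receptor in every tissue, and 4 of lean control mice for db/db (CT db). Another 3 libraries were of ob/ob mice (strain B6.Cg-Lepob/J), which lack leptin in every tissue, and 3 of lean control mice for ob/ob (CT ob). All mice were females kept on chow, without further treatment, until the twelfth week of age. The controls are wild type by their labels but heterozygous by the names of their columns in the table, and this was not settled here. Each library was a pool of about 50 GCs from antral follicles, and the sources used here do not say how many mice gave the cells of one library, so p-values measure the spread between libraries.

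BMPs, growth and differentiation factors, activins and TGF-betas bind pairs of type II and type I serine/threonine kinase receptors. The type II receptor activates the type I receptor, which phosphorylates SMAD1, SMAD5 and SMAD9 on the BMP side and SMAD2 and SMAD3 on the TGF-beta and activin side. These bind SMAD4 and enter the nucleus, while SMAD6 and SMAD7 act at the receptors as inhibitors and are themselves induced by the pathway. In the follicle, oocytes secrete GDF9 and BMP15, whose receptors on GCs use BMPR2 with TGFBR1 (ALK5) or BMPR1B (ALK6), so these genes are best known in GCs for growth of the follicle, expansion of the cumulus and restraint of luteinisation.

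The libraries held 2204686 to 8367593 counts on genes, with the lowest totals in db/db. A count of 3, taken here as the limit of detection, was worth 0.369 to 1.30 CPM (counts scaled to a common library total after TMM). That limit covers counting error only, whereas the intervals on fold changes below also include the spread between libraries. The targeted genes could not check the labels, because Lep was counted 0 to 3 times and Lepr 0 to 17 times per library. The 8 GC markers summed to 5008 to 11984 CPM, with Inha, Hsd17b1, Foxl2 and Fshr present in every library. The oocyte markers summed to 34.9 to 178 CPM in CT db, 59.6 to 83.5 CPM in db/db, 88.4 to 717 CPM in CT ob and 177 to 604 CPM in ob/ob. Of these, Zp1, Zp2 and Zp3 ran from 0 to 6.92 CPM in db/db and from 0 to 29.6 CPM in CT db. Other markers thus made up most of the db/db sums. The theca and stroma markers summed to 61.0 to 554 CPM. The endothelial markers summed to 3.09 to 31.4 CPM and the immune markers to 1.53 to 5.98 CPM, with Itgam at 0 in 13 libraries, Adgre1 in 8 and Emcn in 7. The oocyte marker Ddx4 was at 0 in 6 libraries. The CT ob libraries differed from the others in the GC content of the transcripts they held: genes with transcripts below 42% GC stood a median of 0.20, 0.23 and 0.64 (log2) below their mean over all libraries in CT ob libraries 2, 1 and 3, and 0.47 above it in CT db library 2. CT ob library 3 and CT db library 2 also had the lowest and the highest share of mitochondrial counts (3.25% and 9.70%). Where leaving out 1 of these libraries changes a call or moves a value by over 1.5 times, the value without it is given below for the genes that the comparisons turn on.

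Bmpr2 and Bmpr1b were the most abundant of the 10 genes per summed exon length, and Tgfbr2 was near the limit of detection (see the plot of levels per length). On the TPM scale, which divides by length, with exon lengths summed over all transcripts, Bmpr2 averaged 172 over the 4 group means and Bmpr1b 160, which placed them at the percentiles 94.5 and 94.0 of the genes tested. Bmpr2 (ENSMUSG00000067336), the type II receptor for BMPs, lies on chromosome 1 (59802544 to 59918173, GRCm39, plus strand), and Bmpr1b (ENSMUSG00000052430), a type I receptor, on chromosome 3 (141542897 to 141875323, minus strand). Smad4, the common partner of the receptor SMADs, followed at 79.4 TPM, Tgfbr1, the type I receptor for TGF-beta and GDF9, at 72.0 TPM (ENSMUSG00000007613, chromosome 4, 47353134 to 47414931, plus strand) and Bmpr1a, the other type I BMP receptor, at 63.1 TPM. The inhibitor Smad7 (ENSMUSG00000025880, chromosome 18, 75500374 to 75529006, plus strand) lay at 46.8 TPM. The receptor SMADs were lower, with Smad5 at 37.5, Smad2 at 31.8 and Smad3 at 31.6 TPM. Tgfbr2, the type II receptor for TGF-beta on chromosome 9 (115913361 to 116004800, minus strand), lay at 2.28 TPM, at the percentile 6.73, with 3 to 40 counts per library. In bulk samples, fewer cells of a type and less RNA per cell cannot be told apart, which holds for every level given here.

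**Figure D1:**
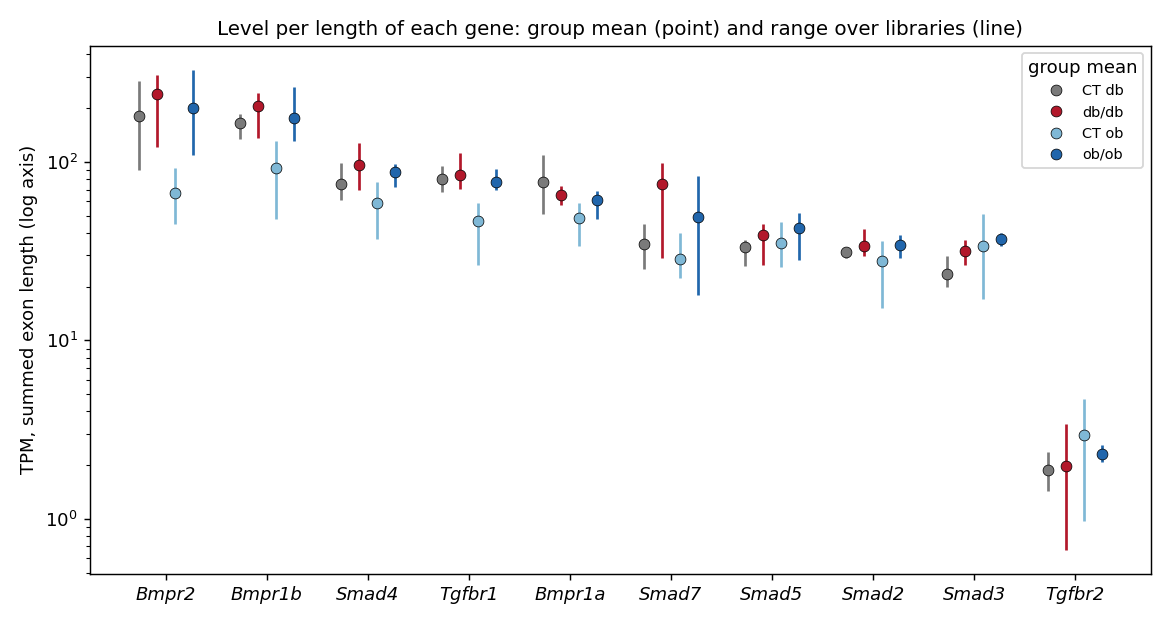
TPM on a log axis for each of the 10 genes, ordered by the mean of the 4 group means, with points for group means and lines for the range over the 3 or 4 libraries of a group. Bmpr2 and Bmpr1b are at the top in all 4 groups, Tgfbr2 is at the bottom, and CT ob is the group in which Bmpr1b (92.6 TPM) lies above Bmpr2 (66.8 TPM).

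The order of levels was set apart from its neighbours at few places. In db/db, CT db and ob/ob, Bmpr2 came first and Bmpr1b followed, but their ranges over libraries overlapped (in ob/ob, for example, 109.9 to 328 TPM for Bmpr2 and 131 to 264 TPM for Bmpr1b). In these 3 groups the lowest Bmpr1b library lay above the highest library of the next gene, Smad4 or Tgfbr1. Other steps without overlap were Bmpr1a above Smad5 in db/db, Smad4 above Smad7 in CT db and Tgfbr1 above Bmpr1a in ob/ob. In CT ob, Bmpr1b came before Bmpr2, and of the 9 pairs of neighbours only Smad2 and Tgfbr2 had ranges that did not overlap. Tgfbr2 was last in all 4 groups, without overlap. The places of Smad2 and Bmpr1b depended on the length used. The canonical transcript of Smad2 has 1645 bases against 11250 summed over its 34 transcripts. With canonical lengths Smad2 moved from rank 8 to rank 2 (129 TPM) and Bmpr1b to rank 3 (119 TPM). Bmpr2 (142 TPM) and Tgfbr2 (1.41 TPM) kept ranks 1 and 10.

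The promoters of the 3 receptors on which the comparisons below turn are shown because all 3 genes were lower in every CT ob library than in any CT db library. They are windows of 300 bases, 250 before and 50 after the start (RefSeq, GRCm38.p6), at chr1:59764029-59764328 on the plus strand for Bmpr2, chr3:141982215-141982514 on the minus strand for Bmpr1b and chr4:47352972-47353271 on the plus strand for Tgfbr1. Capitals mark GGCGCC, a motif of BMP-responsive elements, which reads the same on both strands. Where the table held more than 1 start, the most upstream was used.
Bmpr2: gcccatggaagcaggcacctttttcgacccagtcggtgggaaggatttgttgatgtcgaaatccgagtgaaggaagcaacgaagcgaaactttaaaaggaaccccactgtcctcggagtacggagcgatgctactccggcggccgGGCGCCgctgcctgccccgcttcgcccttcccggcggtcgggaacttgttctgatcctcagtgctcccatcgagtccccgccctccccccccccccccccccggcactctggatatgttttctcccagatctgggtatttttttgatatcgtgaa
Bmpr1b: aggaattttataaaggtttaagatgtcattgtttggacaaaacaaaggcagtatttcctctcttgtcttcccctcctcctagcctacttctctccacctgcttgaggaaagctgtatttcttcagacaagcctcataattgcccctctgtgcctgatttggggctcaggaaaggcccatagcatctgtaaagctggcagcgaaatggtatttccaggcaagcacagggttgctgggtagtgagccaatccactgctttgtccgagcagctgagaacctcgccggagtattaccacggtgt
Tgfbr1: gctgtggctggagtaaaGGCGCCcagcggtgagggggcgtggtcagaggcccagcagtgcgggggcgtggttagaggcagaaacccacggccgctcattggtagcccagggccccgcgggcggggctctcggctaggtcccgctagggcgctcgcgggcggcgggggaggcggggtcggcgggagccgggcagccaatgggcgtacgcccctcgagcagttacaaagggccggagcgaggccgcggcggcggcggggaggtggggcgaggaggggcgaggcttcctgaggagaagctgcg

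The 3 windows were unlike each other in composition, with 59.3% GC for Bmpr2, 48.3% for Bmpr1b and 74.7% for Tgfbr1. GGCGCC was found once in those of Bmpr2 and Tgfbr1 and not in that of Bmpr1b. Among the 7 promoters examined, those of Bmpr1a and Smad5 held it too, beside 11.9% of all 32851 promoters of the same length. The motif is all G and C. The windows of Bmpr1a, Tgfbr1, Smad5 and Bmpr2 lie at the GC percentiles 98.8, 96.1, 78.4 and 69.7 of all promoters. No share over promoters of like GC content was computed. The palindromic SMAD motif GTCTAGAC was in none of the 7 and in 0.213% of all promoters. The promoters of Smad2, Smad4 and Smad7, all on chromosome 18, were not examined for either motif. A match is a description of the sequence, and no binding was measured.

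Bmpr2 spanned a wide range within and between groups. Its CPM were 422, 1296, 718 and 917 in the CT db libraries, 626, 1215, 1213 and 938 in db/db, 255, 384 and 322 in CT ob, and 615, 1338 and 535 in ob/ob. The 3 CT ob libraries were the lowest of all 14, and every ob/ob library lay above them, whereas db/db and CT db overlapped widely. Bmpr1b, which with BMPR2 binds BMP15 and BMP6, was at 239.7, 326, 310.5 and 299 CPM in CT db, 271, 369, 383 and 305 in db/db, 155, 207 and 133 in CT ob, and 191, 414 and 245 in ob/ob. CT ob was again low, but 1 ob/ob library (191 CPM) fell below the highest CT ob library (207 CPM). Bmpr1a, its close relative, ranged from 93.8 to 105 CPM in CT ob, from 100.4 to 121 CPM in ob/ob, from 104 to 129.8 CPM in db/db and from 102 to 216 CPM in CT db, with the highest value in CT db library 2.

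**Figure D2:**
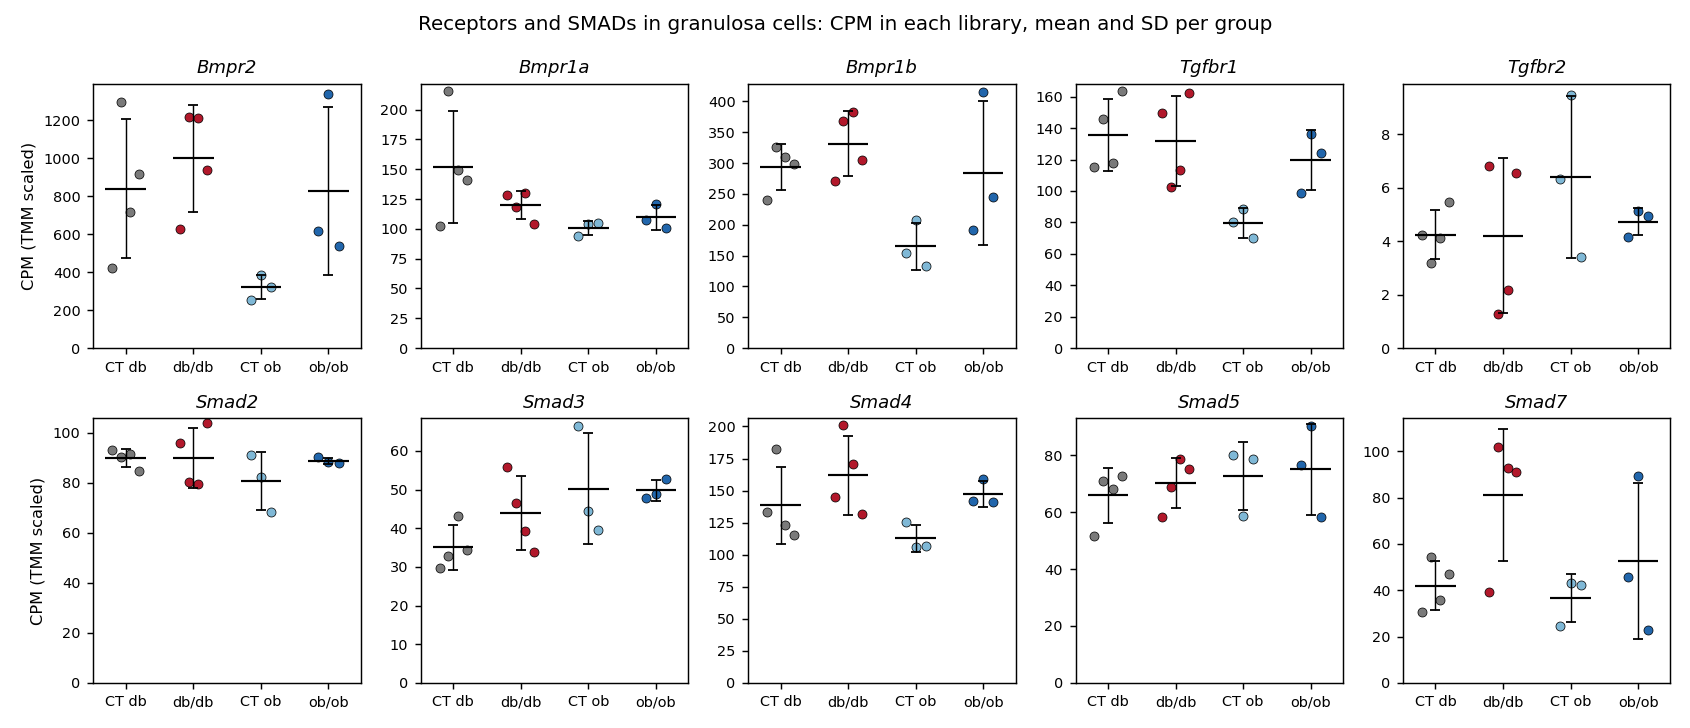
CPM (on TMM-scaled totals, linear axes from 0) of the 10 genes in each library, with bars for the mean and SD of the 3 or 4 libraries per group. The CT ob libraries sit lowest for Bmpr2 (255 to 384 CPM) and Tgfbr1 (70.0 to 88.8 CPM), and 3 of 4 db/db libraries sit above all CT db libraries for Smad7.

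Tgfbr1 was at 115, 146, 118 and 164 CPM in CT db, 149.6, 102, 113 and 162 in db/db, 80.3, 88.8 and 70.0 in CT ob, and 98.8, 136 and 124 in ob/ob. Every CT ob library lay below each of the other 11. Tgfbr2 had 15 to 20 counts per library in CT db, 3 to 21 in db/db, 10 to 38 in CT ob and 24 to 40 in ob/ob, which is 1.29 to 9.48 CPM over all libraries, and its groups overlapped.

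Among the SMADs, Smad2 was the steadiest and Smad7 the most variable. Smad2, a mediator of TGF-beta and activin signals, stayed within 68.2 to 104 CPM in all 14 libraries, and Smad5, a mediator of BMP signals, within 51.7 to 90.3 CPM. Smad3, the partner of Smad2, was at 29.8, 32.8, 43.1 and 34.4 CPM in CT db, 55.8, 46.5, 39.4 and 33.7 in db/db, 66.5, 44.4 and 39.6 in CT ob, and 47.9, 48.7 and 52.8 in ob/ob. Its ob/ob libraries lay close together and CT ob library 1 was the highest of all. Smad4 was at 133, 182, 123 and 116 CPM in CT db, 145, 201, 170.5 and 131 in db/db, 125, 106 and 106 in CT ob, and 142, 159 and 141 in ob/ob, so that ob/ob lay above CT ob without overlap. Smad7 was at 30.6, 54.3, 36.0 and 47.2 CPM in CT db, 39.2, 102, 92.6 and 91.2 in db/db, 24.7, 43.1 and 42.3 in CT ob, and 45.6, 89.2 and 22.9 in ob/ob. In db/db, library 1 lay within the range of CT db and the other 3 above it.

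The first comparison asked whether the loss of the long isoform of the leptin receptor was accompanied by other levels of these genes in GCs. Smad7 showed the largest difference, at a mean of 81.2 ± 28.4 CPM in the db/db libraries against 42.01 ± 10.7 CPM in their controls (± SD, n = 4 each). The log2 fold change was 0.94 ± 0.28 (SE), a fold of 1.92 with a 95% interval of 1.32 to 2.79. The unadjusted p was 0.00522 and the adjusted p 0.465 (edgeR, quasi-likelihood, Benjamini-Hochberg over 11317 genes). All 95% intervals given here took a normal quantile of the SE, so with so few libraries per group they are too narrow. None of the 10 genes passed the threshold of 0.05, beside 0.00884% of all genes tested (1 gene), and Smad7 was the 1 of the 10 with an unadjusted p under 0.05, which 7.59% of all genes had (3.38% on the higher side). None had groups that did not overlap, beside 4.14% of all genes. DESeq2 called none of the 10 either, while edgeR with no filter on low counts called Smad7 (adjusted p = 0.00035) among 270 genes in all. The edgeR fit with no filter also gave adjusted p-values as low as 2.2e-38 (Gdf9 in ob/ob against db/db, not called with the filter). Whether its small p-values hold with so few libraries was not tested, here and in the comparisons below.

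The receptors differed less between db/db and CT db than their libraries differed among themselves. Bmpr2 had a log2 fold change of 0.24 ± 0.31 (95% interval -0.36 to 0.85), Bmpr1b of 0.17 ± 0.16 (-0.14 to 0.47), Tgfbr1 of -0.04 ± 0.18 (-0.40 to 0.31) and Bmpr1a of -0.35 ± 0.20 (-0.74 to 0.05). For Tgfbr2, at 3 to 21 counts, the interval ran from -0.92 to 0.96, so changes of up to nearly that size were not detectable at this depth. The SMADs other than Smad7 lay between -0.0019 and 0.32, with Smad3 at 0.32 ± 0.19 (-0.06 to 0.69). The median over the 10 genes was 0.13, beside 0.01 over all genes tested, and 7 of the 10 were above 0, as were 51.6% of all genes. Without CT db library 2 the value of Bmpr1a went to -0.12, and without CT db library 1 that of Bmpr2 went to 0.02. Of the 9 oocyte markers 4 were tested (median log2 fold change -1.30), and Kit was higher at an unadjusted p under 0.05, as was Cyp17a1 among the 6 theca and stroma markers tested. Their part in the result was not tested.

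The second comparison asked the same of the loss of leptin, and here 3 of the 5 receptors had the smallest p-values of the 10 genes. Bmpr2 averaged 829 ± 442 CPM in the ob/ob libraries against 320.3 ± 64.4 CPM in their controls (n = 3 each), which is 1.37 ± 0.37 on the log2 scale or a fold of 2.58 (95% interval 1.57 to 4.24). Tgfbr1 was at 119.7 ± 19.1 and 79.7 ± 9.42 CPM, a log2 fold change of 0.58 ± 0.19 (0.20 to 0.96). Bmpr1b was at 284 ± 117 and 165 ± 38.0 CPM, a log2 fold change of 0.78 ± 0.31 (0.17 to 1.39). These are 3 of the 10 genes with an unadjusted p under 0.05 on the higher side, beside 4.76% of all genes. By edgeR they had unadjusted p-values of 0.0053, 0.0159 and 0.0358 and adjusted p-values of 0.539, 0.561 and 0.606 over 12425 genes. None of the 10 genes was called, and neither was any other gene (0% of those tested, of which 1014 had an unadjusted p under 0.05, or 8.16%). DESeq2 called 86 genes, among them Bmpr2 (log2 fold change 1.37, adjusted p = 0.0293), and over the alternatives that kept all libraries the adjusted p of Bmpr2 ran from 3.5e-05 with no filter on low counts to 0.767 after a correction for GC content.

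Bmpr2, Tgfbr1 and Smad4 were higher in every ob/ob library than in any CT ob library, which is 3 of the 10 genes beside 8.18% of all genes tested in that direction and 15.8% in either. Smad4 averaged 147 ± 10.1 against 113 ± 10.9 CPM, which is 0.38 ± 0.17 on the log2 scale with an unadjusted p of 0.0501. Smad7 had the widest interval of the SMADs, 0.52 ± 0.46 (-0.39 to 1.42), and went to -0.10 without ob/ob library 2, the ob/ob library with the highest Bmpr2, Bmpr1b and Tgfbr1. Without that library Bmpr2 went to 0.84 and Bmpr1b to 0.40, and Bmpr2 stayed above 0 in all 6 fits that left out 1 library. Bmpr1a (0.12 ± 0.17), Smad2 (0.14 ± 0.18), Smad3 (-0.02 ± 0.23), Smad5 (0.04 ± 0.22) and Tgfbr2 (-0.45 ± 0.46) had intervals that included 0. The median over the 10 genes was 0.26 beside -0.04 over all genes, and 8 of the 10 were above 0, as were 46.0% of all genes. Markers of GCs moved in the same comparison, with 3 of 8 (Fshr, Cyp19a1 and Inhba) higher at an unadjusted p under 0.05. So was Kit, 1 of the 8 oocyte markers tested, whereas Kdr, 1 of the 2 endothelial markers tested, and Pdgfra, 1 of the 6 tested for theca and stroma, were lower. Their part in the result was not tested.

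The third comparison set the lean controls side by side, and it was the only one in which the main test, edgeR with the filter on low counts, called any of the 10. Bmpr2 was lower in CT ob than in CT db (320.3 ± 64.4 against 838 ± 367 CPM), with a log2 fold change of -1.39 ± 0.38, that is 2.62-fold lower, at an adjusted p of 0.0446. Tgfbr1 was lower too (79.7 ± 9.42 against 136 ± 23.1 CPM), with a log2 fold change of -0.77 ± 0.20, 1.70-fold lower, at an adjusted p of 0.0342 (edgeR, 14 libraries, 12586 genes). These 2 of the 10 genes compare with 4.39% of all genes called lower, 2.24% called higher and 6.63% in either direction, and 5 of the 10 had an unadjusted p under 0.05, beside 26.9%. Bmpr1b (-0.83 ± 0.24, adjusted p = 0.0527) and Bmpr1a (-0.59 ± 0.20, adjusted p = 0.0814) missed the threshold by edgeR. Smad3 (0.53 ± 0.21, adjusted p = 0.126) and Tgfbr2 (0.61 ± 0.49, adjusted p = 0.444) had values above 0 and were not called, and Smad3 went to 0.26 without CT ob library 1 and Tgfbr2 to 0.22 without CT ob library 2. Bmpr1a went to -0.38 without CT db library 2. Bmpr2, Tgfbr1 and Bmpr1b had groups that did not overlap, 3 of 10 beside 11.2% of all genes in that direction and 21.2% in either. The median over the 10 genes was -0.25 beside 0.06 over all genes, and 3 of the 10 were above 0, beside 54.1%.

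The calls between the controls depended on single libraries and on the fit. DESeq2 called the 4 receptors Bmpr2, Tgfbr1, Bmpr1b and Bmpr1a, limma-voom called Bmpr2, Tgfbr1 and Bmpr1b, and a fit of the control groups alone or scaling by library size alone called none. With 1 library left out the number ran from 0 to 4: it was 0 without CT db library 2, CT db library 4, CT ob library 1 or CT ob library 3, it was 4 without CT db library 1 and 3 without ob/ob library 2, and it was 1 (Tgfbr1) without CT db library 3 or without db/db library 2, 3 or 4. Without CT ob library 2 or ob/ob library 1, Tgfbr1 and Bmpr1b were called and Bmpr2 was not. Bmpr2 kept a value of -1.61 to -1.10 and Tgfbr1 of -0.86 to -0.66 in these fits. The models were bred as separate strains, so the model and whatever else differed between these sets of libraries cannot be told apart. Oocyte markers were higher in CT ob (8 of 9 tested, all above 0, median 2.24, 5 with an unadjusted p under 0.05), as was Pecam1 among 2 endothelial markers tested. Of the 8 GC markers, Fshr was lower (82.5 against 271 CPM, adjusted p = 0.0163), with Inhba lower and Foxl2 higher at an unadjusted p under 0.05. The part of these markers in the result was not tested.

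**Figure D3:**
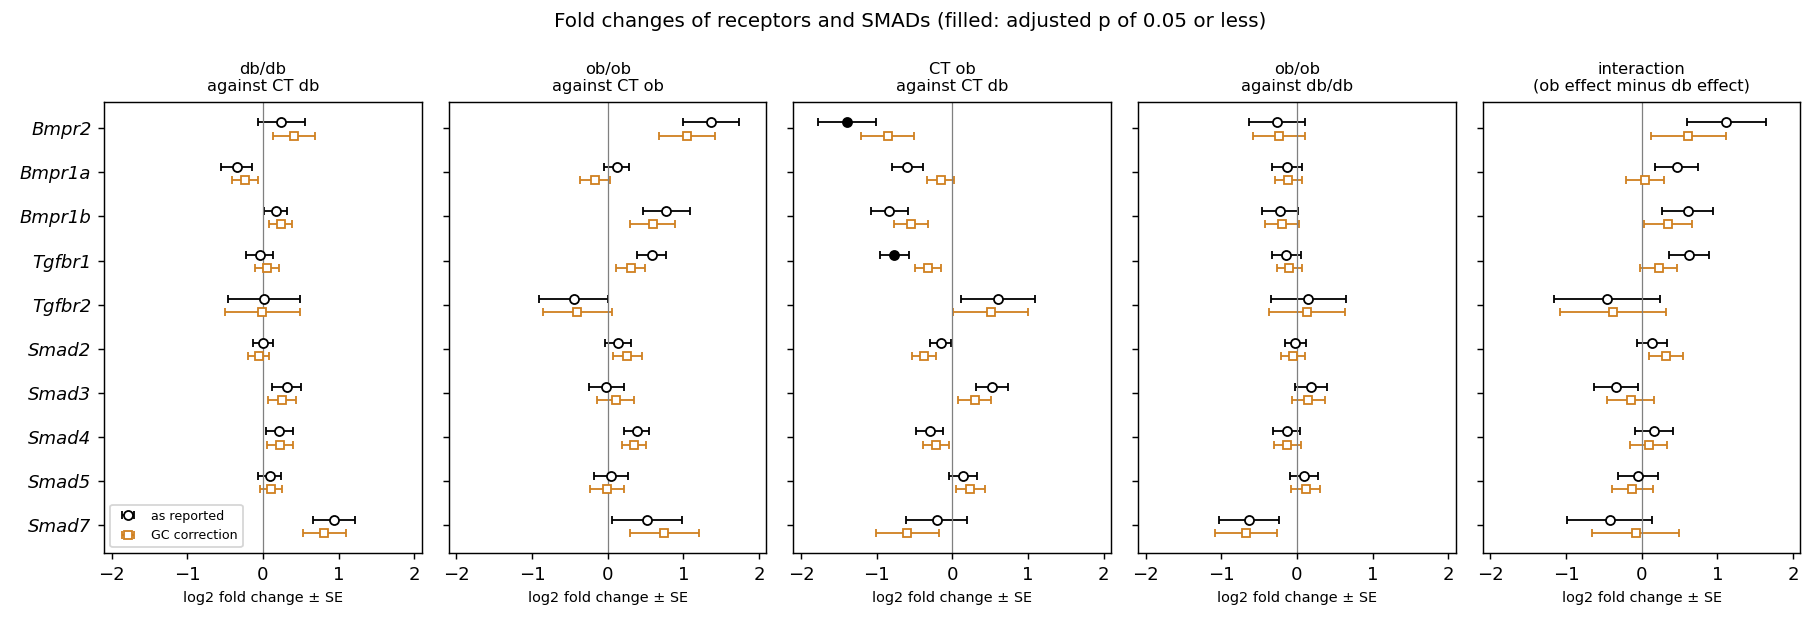
Log2 fold changes with SE for the 10 genes in the comparisons named above each panel, as reported (black circles) and after GC correction (orange squares), filled where the adjusted p was 0.05 or less. The only filled points are Bmpr2 (-1.39) and Tgfbr1 (-0.77) in CT ob against CT db as reported, and no point is filled after GC correction.

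No difference between the mutants passed the test in these genes. Between ob/ob and db/db, the log2 fold change of Bmpr2 was -0.27 ± 0.37 (95% interval -0.99 to 0.45), that of Bmpr1b -0.23 ± 0.24 (-0.69 to 0.24) and that of Tgfbr1 -0.14 ± 0.19 (-0.52 to 0.23). Smad7 was at -0.63 ± 0.40 (-1.41 to 0.15). These values leaned on ob/ob library 2: without it Smad7 went to -1.26, Bmpr2 to -0.80 and Bmpr1b to -0.61, and none was called. None of the 10 was called by edgeR (beside 0.0159% of all genes), by DESeq2 or by any other alternative, none had an unadjusted p under 0.05 (beside 8.19%), and in none did the groups separate (beside 9.91%). Above 0 were 3 of the 10, beside 49.1%.

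The test of the difference between the mutant effects gave no call. For Bmpr2 the effect in the ob model exceeded that in the db model by 1.12 ± 0.52 (log2), at an unadjusted p of 0.0478, and for Tgfbr1 by 0.63 ± 0.27, at an unadjusted p of 0.0354, with adjusted p-values of 0.609 and 0.583. These are 2 of the 10 genes under 0.05 unadjusted, both above 0, beside 5.12% of all genes, and 6 of the 10 were above 0, beside 46.7%. No gene was called by edgeR in this test (0%, with 1021 genes or 8.11% at an unadjusted p under 0.05), and DESeq2 called none of the 10, while edgeR with no filter on low counts called Bmpr2 (adjusted p = 0.0135). Without ob/ob library 2 the value of Bmpr2 went to 0.59. The comparisons share libraries, so the values of Bmpr2 side by side (1.37 in ob/ob against CT ob, 0.24 in db/db against CT db, -1.39 in CT ob against CT db, -0.27 in ob/ob against db/db) are not independent.

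The GC content of the transcripts moved with the results that involve CT ob. The canonical transcripts of Bmpr2, Tgfbr1, Bmpr1a and Bmpr1b have 41.1%, 41.5%, 42.1% and 43.7% GC, between the percentiles 9.16 and 19.4 of the genes tested, while Tgfbr2 has 50.1% and the SMADs range from 46.5% (Smad5) to 57.9% (Smad7). In CT ob against CT db, genes with transcripts below 42% GC had a median log2 fold change of -0.54 and those above 55% of 0.37. Of the 552 genes called lower, 256 were in the low class. For ob/ob against CT ob the medians were 0.32 and -0.24, and in db/db against CT db -0.13 and 0.09. In the test of the difference between the mutant effects they were 0.47 and -0.31. Bmpr2 lay outside the quartiles of genes of like GC content in both comparisons with CT ob, and so did Bmpr1b. Quartiles bound only the middle of the genes, so many genes of like GC content lie outside them too. Both comparisons also share the CT ob libraries. Tgfbr1 lay above them in ob/ob against CT ob and close to the lower quartile between the controls, and Bmpr1a lay within them in both.

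**Figure D4:**
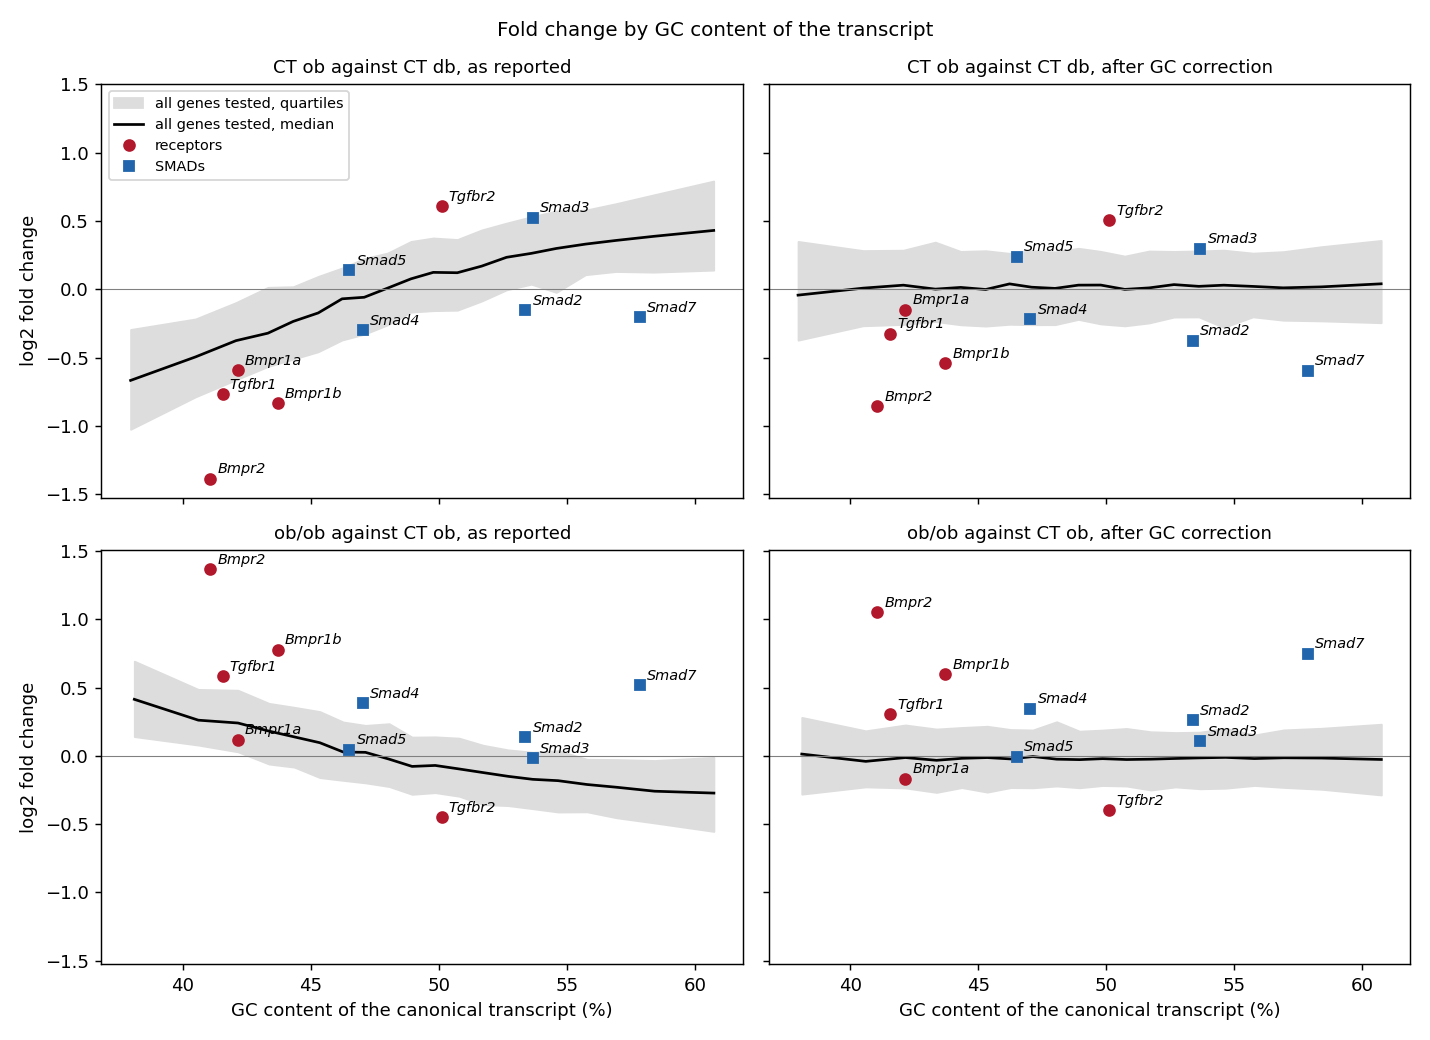
Log2 fold change against the GC content of the canonical transcript in CT ob against CT db (top) and ob/ob against CT ob (bottom), as reported (left) and after GC correction (right). The black line and grey band give the median and quartiles of all genes tested in 20 bins, red circles the receptors and blue squares the SMADs. The line slopes on the left and is flat on the right. Bmpr2 lies outside the band in all 4 panels, as many genes of each bin do.

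With the trend on GC content taken out of each library, an alternative chosen after seeing the data, the differences of 4 receptors between the controls were smaller. Bmpr2 went from -1.39 to -0.86 (adjusted p = 0.233), Tgfbr1 from -0.77 to -0.32 (adjusted p = 0.344), Bmpr1b from -0.83 to -0.54 and Bmpr1a from -0.59 to -0.15, and none of the 10 was called, while 149 genes were called in all. Smad2 went the other way, from -0.16 to -0.38, and so did Smad7, from -0.20 to -0.60. Between ob/ob and CT ob, Bmpr2 went from 1.37 to 1.05 (unadjusted p = 0.0214, adjusted p = 0.767), Bmpr1b from 0.78 to 0.60 and Tgfbr1 from 0.58 to 0.30. Smad7 in db/db against CT db went from 0.94 to 0.81. In the test of the difference between the mutant effects, Bmpr2 went from 1.12 to 0.62 and Tgfbr1 from 0.63 to 0.22. The correction also removes any true difference that runs with GC content, so the values with and without it are given side by side.

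The rest of the pathway was read from lists of ligands, receptors, SMADs, antagonists, regulators and response genes. In db/db against CT db, none of 55 list genes tested was called, and the 3 with an unadjusted p under 0.05 were all higher in db/db, beside 7.59% of all genes under 0.05 and 3.38% on the higher side. Smad6, the inhibitory SMAD for BMP signals, averaged 9.28 against 3.96 CPM, which is 1.22 ± 0.42 on the log2 scale (adjusted p = 0.559 by edgeR). The db/db libraries had 3.41, 6.88, 13.4 and 13.4 CPM and the controls 3.37, 4.26, 3.02 and 5.18 CPM, so db/db library 1 was again within the control range, as for Smad7. Tob1, an antiproliferative protein that binds receptor SMADs, had 45.8 and 24.5 CPM (0.90 ± 0.26, adjusted p = 0.462), and Id2, a direct BMP response gene, 107 and 61.7 CPM (0.79 ± 0.36, adjusted p = 0.648). The other Id genes did not share this: Id1 was at 38.8 and 39.7 CPM (-0.04 ± 0.45) and Id3 at 673 and 622 CPM (0.11 ± 0.27). The receptors Acvr1 (0.49 ± 0.31), Acvr2a (-0.21 ± 0.19), Acvr2b (0.35 ± 0.32), Amhr2 (0.04 ± 0.20) and Tgfbr3 (0.19 ± 0.23), the mediators Smad1 (-0.02 ± 0.23) and Smad9 (0.29 ± 0.29) and the ligand Bmp6 (0.36 ± 0.24) had intervals that included 0, as did the oocyte ligands Gdf9 (-1.57 ± 0.92) and Bmp15 (-2.19 ± 1.22).

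**Figure D5:**
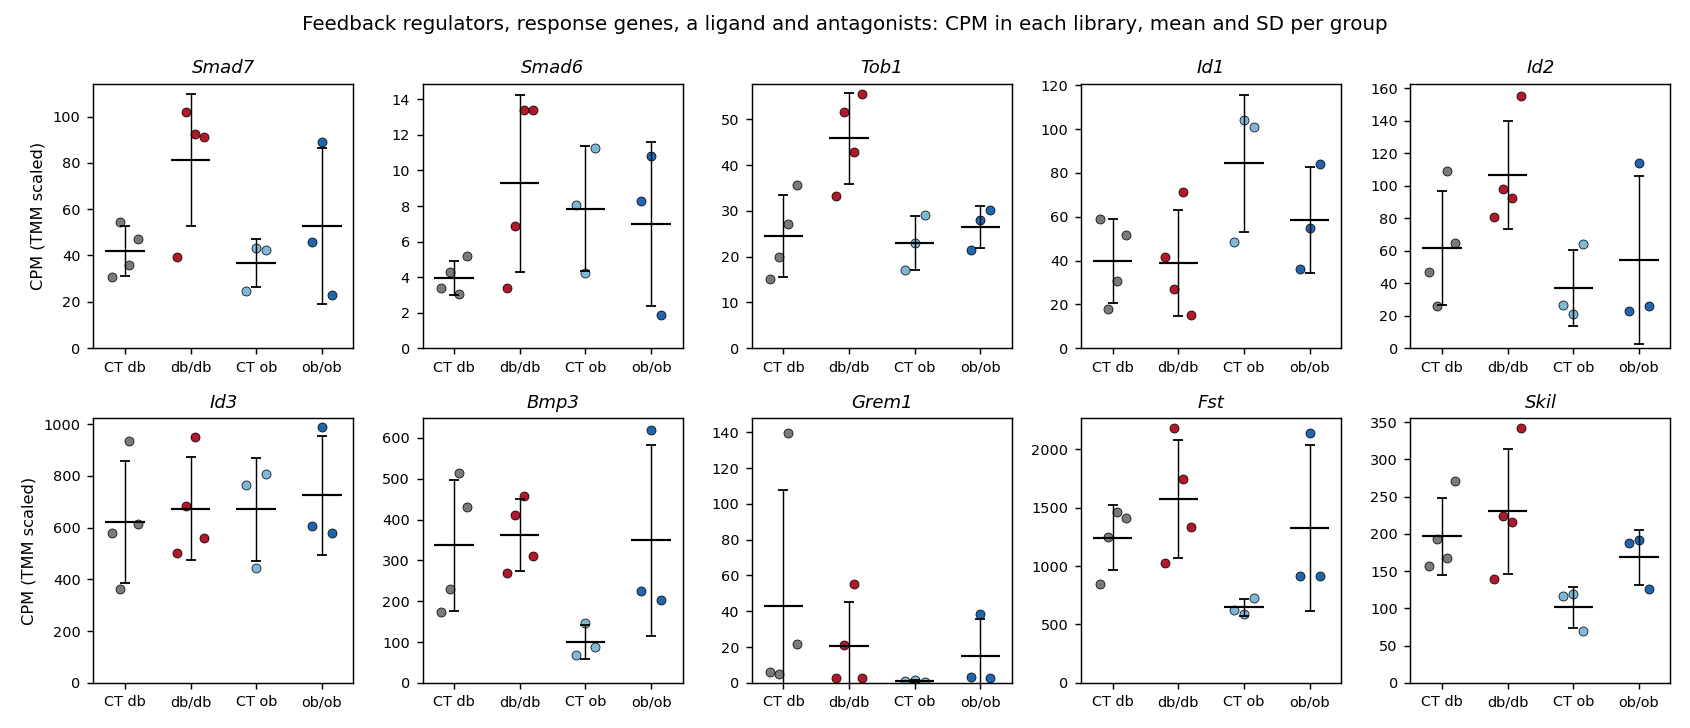
CPM in each library (linear axes from 0, bars for mean and SD, cut off at 0 for Grem1) of the inhibitors Smad7 and Smad6, the SMAD-binding Tob1, the response genes Id1, Id2 and Id3, the ligand Bmp3, the antagonists Grem1 and Fst, and the SMAD repressor Skil. In Smad7 and Smad6, 3 of 4 db/db libraries lie above all CT db libraries, and in Bmp3, Fst and Skil the CT ob libraries lie lowest.

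Among 58 list genes tested between ob/ob and CT ob, none was called, 7 were higher and 3 lower at an unadjusted p under 0.05, beside 8.16% of all genes in either direction and 4.76% on the higher side. Bmp3, an atypical BMP that opposes others, was at 225, 619.8 and 203 CPM in the ob/ob libraries against 67.1, 148 and 88.0 CPM in the controls, which is 1.79 ± 0.48 on the log2 scale (adjusted p = 0.539). Fst, the activin-binding follistatin, was at 915, 2143 and 918 CPM against 628, 589 and 728 CPM (1.03 ± 0.35, adjusted p = 0.561). Both were highest in ob/ob library 2, as Bmpr2 and Bmpr1b were, and without it Bmp3 went to 1.08 and Fst to 0.50. Grem1, a BMP antagonist, was at 3.11, 38.6 and 2.83 CPM and at 0.767, 1.496 and 0.682 CPM, near the limit of detection in CT ob, and its log2 fold change of 3.88 went to 1.56 without ob/ob library 2. The repressor Skil (0.72 ± 0.26), the deubiquitinase Usp9x (0.61 ± 0.24), the SMAD4 regulator Trim33 (0.42 ± 0.17) and the integrin Itgav (0.56 ± 0.22) were higher in ob/ob at an unadjusted p under 0.05, and Nbl1 (-2.12 ± 0.74), Msx1 (-2.39 ± 0.75) and Atoh8 (-1.73 ± 0.73) lower. Of these, Nbl1 went to -3.32 and Atoh8 to -2.63 without ob/ob library 1, and Atoh8 to -1.14 without CT ob library 3. Id1 (-0.53 ± 0.38), Id2 (0.56 ± 0.67), Id3 (0.11 ± 0.31) and Smad6 (-0.17 ± 0.65) were not at that level, nor were Acvr1 (-0.14 ± 0.36), Acvr2a (0.20 ± 0.26), Acvr2b (-0.02 ± 0.33), Amhr2 (-0.59 ± 0.38), Tgfbr3 (-0.10 ± 0.40), Smad1 (-0.29 ± 0.23), Smad9 (0.60 ± 0.47) and Bmp6 (0.21 ± 0.32). The oocyte ligands Gdf9 (91.9 and 142 CPM, -0.63 ± 1.03) and Bmp15 (59.7 and 89.5 CPM, -0.60 ± 1.02) had wide intervals. Transcripts of Usp9x, Skil, Trim33, Itgav, Bmp3 and Grem1 have 40.0% to 44.8% GC, and those of Msx1, Nbl1 and Atoh8 58.3% to 62.1%. That of Fst has 51.5%. With GC content and length corrected for, Usp9x went to 0.19, Trim33 to 0.16, Itgav to 0.35, Skil to 0.50 and Bmp3 to 1.61. Nbl1 went to -1.88 and Msx1 to -2.12, while Fst went up to 1.15. The part of GC content in these values was not tested.

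Between the controls, 4 of 59 list genes tested were called, all lower in CT ob, beside 4.39% of all genes called lower and 6.63% in either direction. They were Bmp3 (101 against 337 CPM, -1.74 ± 0.45, adjusted p = 0.0360), Tgfb3 (16.6 against 44.0 CPM, -1.41 ± 0.34, adjusted p = 0.0291), a TGF-beta ligand, Usp9x (-0.80 ± 0.22, adjusted p = 0.0446) and Itgav (-0.94 ± 0.24, adjusted p = 0.0371), which binds latent TGF-beta. After the correction for GC content Tgfb3 was still called (-1.60, adjusted p = 0.0335) and the other 3 were not. None of the 4 was called without CT db library 4, without CT ob library 1 or without CT ob library 3, and leaving out some other libraries ended the calls of some of them. Fst (-0.94 ± 0.32), Skil (-0.95 ± 0.29), Grem1 (-5.40 ± 1.68), Nog (-2.73 ± 0.86), Zeb2 (-0.81 ± 0.34) and Acvr2a (-0.50 ± 0.22) were lower at an unadjusted p under 0.05, and Amhr2 (0.88 ± 0.31), Id1 (1.09 ± 0.47), Ltbp3 (0.87 ± 0.35), Pmepa1 (1.16 ± 0.52), Msx1 (2.27 ± 0.76) and Gdf9 (2.45 ± 1.03) higher. After the correction for GC content Acvr2a went to -0.13, Zeb2 to -0.44, Skil to -0.64, Amhr2 to 0.47 and Id1 to 0.84. Fst (-1.09) and Nog (-3.04) went the other way. Without CT ob library 3, Ltbp3 went to 0.24, Pmepa1 to 0.48 and Acvr2a to -0.30. Without CT ob library 1 Gdf9 went to 0.73, and without CT db library 3 Grem1 went to -3.40. In the mutants set against each other, Tgfb2 (3.10 ± 0.97), Gdf9 (3.38 ± 1.16) and Bmp15 (3.48 ± 1.37) were higher at that level and Tgfb3 (-1.06 ± 0.33), Tgfbr3 (-0.92 ± 0.34), Tob1 (-0.79 ± 0.28), Tgif1 (-0.35 ± 0.14), Cav1 (-1.74 ± 0.73) and Nog (-1.51 ± 0.71) lower, none of them called. Without ob/ob library 1 Bmp15 went to 2.30 and Gdf9 to 2.12, and without db/db library 4 Nog went to -0.60. All 8 oocyte markers tested were above 0 in that comparison (median 3.68), and their part in the values of Gdf9, Bmp15 and Tgfb2 was not tested. In the test of the difference between the mutant effects, Bmp3 (1.69 ± 0.61), Grem1 (4.97 ± 2.04) and Itgav (0.79 ± 0.34) had an unadjusted p under 0.05 and none was called, and without ob/ob library 2 Bmp3 went to 0.98 and Grem1 to 2.64.

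The balance between receptors that share a partner also differed between libraries. The log2 ratio of Bmpr1b to Bmpr1a was 0.60 to 1.23 in CT db, 1.08 to 1.64 in db/db, 0.345 to 0.997 in CT ob and 0.83 to 1.77 in ob/ob, so the mean was higher in both mutants (1.46 against 0.99 and 1.30 against 0.69) while the ranges overlapped. Bmpr1b exceeded Bmpr1a in all 14 libraries. The log2 ratio of Tgfbr2 to Tgfbr1 ran from -4.73 to -4.57 in ob/ob, below the CT ob libraries (-4.36 to -3.23) without overlap, while db/db (-6.31 to -4.46) overlapped with CT db (-5.51 to -4.78). CT ob lay above CT db too, without overlap. It rests on 3 to 40 counts of Tgfbr2. The log2 ratio of Smad3 to Smad2 was -1.64 to -1.08 in CT db and -0.89 to -0.46 in CT ob, without overlap, while db/db (-1.62 to -0.78) and ob/ob (-0.91 to -0.73) overlapped with each other and with their controls. That of Bmpr2 to Tgfbr2 was 6.76 to 8.03 in ob/ob, 5.33 to 6.56 in CT ob, 6.65 to 8.66 in CT db and 6.52 to 9.88 in db/db. CT ob thus lay below both ob/ob and CT db without overlap. This ratio too rests on 3 to 40 counts of Tgfbr2. The transcripts of Bmpr2 and Tgfbr1 have 41.1% and 41.5% GC against 50.1% in Tgfbr2, and the part of GC content in these ratios was not tested. For none of the ratios was a share over other pairs of genes computed.

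Within groups, Bmpr2 and Smad7 varied together more closely than any other pair of the 10. Over the 14 libraries, with group means removed, Pearson's r of log2 CPM was 0.87 for Bmpr2 and Smad7, 0.79 for Bmpr2 and Bmpr1b, 0.79 for Tgfbr1 and Tgfbr2 and -0.65 for Tgfbr2 and Smad4, and the median over the 45 pairs was 0.16. The libraries share depth and composition across genes, so these values describe these libraries only. Of the other 12585 genes, those most like Bmpr2 were Smg1 (r = 0.95) and Cnot6 (0.94), those most like Smad7 were Gnb1 (0.95) and Gm37436 (0.94), those most like Bmpr1b were Plekhm3 and Scarb2 (both 0.92), and those most like Tgfbr1 were Tbc1d23 (0.88) and Smc1b (0.85). For Bmpr1a they were Arl5a (0.92) and Gm49602 (0.89), for Smad4 Csnk1g1 (0.90) and Coa6 (0.87), for Smad3 Rgn and Wsb1 (both 0.90) and for Smad5 Pdzd2 (0.94) and 4933430M04Rik (0.90). For Smad2 they were Zfp46 (0.95) and Tmem168 (0.92) and for Tgfbr2 Tmx1 (0.95) and Cyp4v3 (0.91).

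Some counts may hold reads of overlapping genes, since the strand setting of the counting is not given in the sources used here. Bmpr1a and Gm17110, and Tgfbr2 and Gm4668, are pairs of opposite strand with overlapping exons that both appear in the table, and Smad5 overlaps Gm55294 on the same strand. Bmpr2 shares exon sequence with the protein-coding ENSMUSG00000144256 on its own strand and with B430105G09Rik on the other, and Tgfbr1 with Gm32435 on the other, and none of these 3 was matched to a row of the table used here, so reads from them could be counted in Bmpr2 and Tgfbr1.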

How the data were processed

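Pools of granulosa cells (GCs) of db/db, ob/ob, CT db and CT ob mice were sequenced. The authors captured polyadenylated RNA of about 50 cells with oligo-dT beads and amplified it, without molecular identifiers, and deposited raw whole-number counts per gene (trimming with cutadapt, mapping to GRCm39 with STAR, counting with featureCounts). The submitters' processing notes instead name GRCm38, Trim Galore 0.6.2 and HISAT2 2.1.0, and this was not settled. Columns were assigned to groups, not to numbered replicates, and library numbers follow column order. Positions and lengths came from GRCm39 (GENCODE), matched by identifier (54749 of 55414), and promoters from RefSeq (GRCm38.p6).

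edgeR 4.0.16 (R 4.3.3) gave TMM factors and two-sided quasi-likelihood tests after filterByExpr (minimum count 10, minimum total 15), and a gene was called where its p, adjusted after Benjamini-Hochberg, was at most 0.05. Each model was fitted on its own, and the comparisons between models and the interaction in 1 fit of 14 libraries. TPM used summed exon lengths. Correlations used log2 CPM with a prior count of 2. The scripts were tested on simulated data. Named genes were the 10 members, a core of the pathway, list genes with an unadjusted p under 0.05, and the 2 genes most like each member. Members and lists were chosen with earlier results of these data known. Alternatives were other scalings and filters, DESeq2 1.42.0, limma-voom (limma 3.58.1), other fits, each library left out, and, added after seeing the data, corrections for GC content (canonical transcript, 20 bins) with or without length, and canonical lengths. No column was left out. The depth was 2204686 to 8367593 counts per library.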

Additional observations from a re-analysis of the deposited data

Results flagged for a closer look

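The log2 ratio of Bmpr1b to Bmpr1a in db/db library 1 was 1.08, far from the other 3 db/db libraries at 1.55 to 1.64 (Dixon's gap ratio 0.838). Of 56 groups of 4 libraries examined in this way 1 stood out, where chance gives about 2.8. The same library had the lowest Bmpr2, Bmpr1b and Smad7 of the db/db group. Its theca and stroma markers summed to 554 CPM, against 89.6 to 161 CPM in the other 3 (Cyp17a1 256 CPM and Cyp11a1 191 CPM), and the part of these cells in its values was not tested. Without it, the log2 fold change of Smad7 in db/db against CT db was 1.17 in place of 0.94.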

How the results depend on the processing

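No paired analysis was possible because the columns of the count table carry no replicate numbers of the labels. Without the filter on low counts, 1 of the 10 genes was called in db/db against CT db (Smad7), in ob/ob against CT ob (Bmpr2) and in the interaction (Bmpr2). In CT ob against CT db 3 were called without it. Whether the small p-values of the fit without the filter hold was not tested. DESeq2 called 1 in ob/ob against CT ob and 4 in CT ob against CT db. In CT ob against CT db, requiring at least 10 counts in every library or limma-voom gave 3, and scaling by library size alone, fitting the 2 groups on their own, the GC correction and the GC and length correction gave 0. Leaving out 1 library gave 0 to 4 there and 0 in the other comparisons. Over all genes, the number called in CT ob against CT db went from 834 to 1563 (DESeq2), 1727 (no filter), 265 (library size alone), 3 (the 2 groups on their own), 149 (GC) and 201 (GC and length). In db/db against CT db it went from 1 to 44 (DESeq2) and 270 (no filter), in ob/ob against CT ob from 0 to 86 and 359, in ob/ob against db/db from 2 to 72 and 535, and in the interaction from 0 to 72 and 329. The causes were not tested.

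Values near 0 changed sign. In db/db against CT db, Smad2 went to 0.0020 (upper quartile), 0.060 (library size alone) and 0.0023 (1 fit of all 14 libraries), Tgfbr1 to 0.018 (library size alone), 0.054 (GC) and 0.022 (GC and length), and Tgfbr2 to -0.016 (no filter), -0.18 (limma-voom), -0.0067 (GC) and -0.082 (GC and length). Between ob/ob and CT ob, Smad3 went to 0.034 (library size alone), 0.048 (no filter), 0.11 (GC) and 0.098 (GC and length), Bmpr1a to -0.17 and -0.19 and Smad5 to -0.0069 and -0.037 (GC, GC and length). Between ob/ob and db/db, Smad2 went to 0.0030 (upper quartile), 0.0047 (library size alone) and 0.032 (no filter), and in the interaction Smad5 went to 0.042 (no filter). With 1 library left out, the ranges that crossed 0 were, in db/db against CT db, -0.30 to 0.30 for Tgfbr2, -0.16 to 0.060 for Tgfbr1, -0.079 to 0.053 for Smad2 and -0.012 to 0.16 for Smad5. For ob/ob against CT ob they were -0.16 to 0.24 for Smad3, -0.11 to 0.20 for Smad5 and -0.10 to 0.88 for Smad7, and between the controls -0.35 to 0.017 for Smad7. Between ob/ob and db/db they were -0.075 to 0.057 for Smad2, -0.14 to 0.46 for Tgfbr2 and -0.068 to 0.24 for Smad5, and in the interaction -0.20 to 0.11 for Smad5. At 3 to 40 counts per library, depth limits what can be said of Tgfbr2.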
